A study of Mus musculus with 20 samples.

Results

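The genes described here are 55 genes of chromosomal DNA replication, chosen by name from the 56748 genes in each of the study's count tables. They cover 10 roles: the origin recognition complex, the licensing factors, the MCM2-7 helicase, helicase activation and GINS, the polymerases and primase, the sliding clamp with its loader, RPA and Okazaki fragment processing, nucleotide supply, cyclin E with CDK2, and replication-coupled chromatin. All 55 had at least 10 counts summed over each experiment, so all were tested in both.

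Gene expression was measured by poly(A)-enriched RNA-seq in 20 mouse macrophage libraries from 2 experiments, which addressed how nitric oxide and the aldo-keto reductase AKR1A1 shape the response to classical activation. The labels describe the first experiment as bone marrow-derived macrophages (BMDM) from C57BL/6J mice aged 6 to 12 weeks, either wild type (WT) or lacking inducible nitric oxide synthase (iNOS KO, gene Nos2), with 3 libraries in each of 4 groups. The second used the macrophage line RAW264.7, either WT or Akr1a1 KO, with 2 libraries in each of 4 groups. BMDM were kept in 20 ng/mL M-CSF. Each genotype was either unstimulated or exposed for 48 h to 50 ng/mL LPS with IFNγ, at 30 ng/mL for BMDM and 10 ng/mL for RAW264.7. According to the study's methods, marrow was pooled by genotype, and the RAW264.7 replicates were clones, each knockout line having been grown from a single sorted cell. The methods give C57BL/6J for WT mice alone and B6.129P2-Nos2tm1Lau/J for iNOS KO mice, so strain went with genotype. They name male and female mice and a narrower age range than the labels. No source ties the BMDM libraries to separate animals, so the p-values for them measure the spread between these libraries, which may be technical. The results text, figure legends and methods of the study's paper all name RAW264.7 for the iNOS RNA-seq as well, whereas the labels give BMDM. The name in the labels is used here, and the cell type is unsettled. For replicate B of both unstimulated RAW264.7 groups the title says stimulated and the treatment field unstimulated. The treatment field was followed, and the counts and medians that rest on these libraries are also given without them.

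Replication begins when the origin recognition complex, CDC6 and CDT1 load the MCM2-7 helicase onto DNA during G1. The helicase fires when CDC7-DBF4 and CDK2 bring in CDC45 and GINS, and polymerases then copy both strands on the PCNA clamp while ribonucleotide reductase supplies deoxynucleotides. Many of these genes are transcribed at the G1/S boundary under E2F factors, and macrophages that divide in M-CSF or as a transformed line are known to leave the cell cycle when activated. The study's paper, however, describes BMDM as not proliferating in either genotype, with or without stimulation. For RAW264.7 it states that nitric oxide made on stimulation inhibits proliferation. Cell division was not measured in these libraries.

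Promoter windows of 300 bases, 250 before and 50 after the RefSeq start (GRCm38.p6), were at hand for 46 of the 55 genes. The letters of an E2F site (TTTCCCGC, TTTCGCGC, TTTGCCGC or TTTGGCGC, on either strand) stood in 19 of these 46 genes, or 41.3%, against 704 of all 27025 genes with a window, or 2.6%. CCAAT stood in 28 of the 46 (60.9%, against 41.1% of all genes), and the letters of the cell cycle homology region (TTTGAA or TTTCAA) in 9 (19.6%, against 28.1%). Of the 34 genes lower by more than 2 log2 units in stimulated WT BMDM, 41.2% held the E2F letters, against 41.7% of the other 12. The 250 bases upstream of the start follow for 6 genes that span the range of responses described further on, 5′ to 3′ on the gene's own strand, with E2F letters in capitals. Mcm6, Cdc6, Orc1 and Rrm2 changed far more in WT than in iNOS KO BMDM, Gins3 fell in both genotypes, and Pcna fell in neither.
Mcm6, chr1:128359706-128359955, minus strand: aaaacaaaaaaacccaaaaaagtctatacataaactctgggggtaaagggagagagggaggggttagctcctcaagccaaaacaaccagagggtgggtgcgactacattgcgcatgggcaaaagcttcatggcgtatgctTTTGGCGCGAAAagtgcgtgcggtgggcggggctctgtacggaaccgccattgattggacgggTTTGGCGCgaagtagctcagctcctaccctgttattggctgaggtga
Cdc6, chr11:98907901-98908150, plus strand: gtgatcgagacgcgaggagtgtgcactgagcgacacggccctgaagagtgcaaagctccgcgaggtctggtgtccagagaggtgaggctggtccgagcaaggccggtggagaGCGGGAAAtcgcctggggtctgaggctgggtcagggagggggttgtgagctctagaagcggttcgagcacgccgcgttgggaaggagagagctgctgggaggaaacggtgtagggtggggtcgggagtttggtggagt
Orc1, chr4:108579204-108579453, plus strand: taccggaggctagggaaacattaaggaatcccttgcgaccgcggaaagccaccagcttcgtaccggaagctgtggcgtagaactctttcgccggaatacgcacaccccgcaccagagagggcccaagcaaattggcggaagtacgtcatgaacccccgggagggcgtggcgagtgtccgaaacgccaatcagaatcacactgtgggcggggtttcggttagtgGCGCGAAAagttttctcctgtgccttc
Gins3, chr8:95633309-95633558, plus strand: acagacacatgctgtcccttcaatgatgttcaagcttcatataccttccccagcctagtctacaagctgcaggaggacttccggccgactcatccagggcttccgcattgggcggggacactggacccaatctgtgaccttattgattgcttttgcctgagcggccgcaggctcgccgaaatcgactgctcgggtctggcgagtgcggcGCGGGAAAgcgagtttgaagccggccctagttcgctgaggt
Rrm2, chr12:24708004-24708253, plus strand: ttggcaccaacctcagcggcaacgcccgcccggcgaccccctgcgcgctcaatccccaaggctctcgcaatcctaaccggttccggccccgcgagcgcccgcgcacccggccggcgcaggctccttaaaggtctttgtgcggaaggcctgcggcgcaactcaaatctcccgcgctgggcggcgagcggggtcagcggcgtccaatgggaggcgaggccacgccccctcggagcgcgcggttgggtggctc
Pcna, chr2:132253181-132253430, minus strand: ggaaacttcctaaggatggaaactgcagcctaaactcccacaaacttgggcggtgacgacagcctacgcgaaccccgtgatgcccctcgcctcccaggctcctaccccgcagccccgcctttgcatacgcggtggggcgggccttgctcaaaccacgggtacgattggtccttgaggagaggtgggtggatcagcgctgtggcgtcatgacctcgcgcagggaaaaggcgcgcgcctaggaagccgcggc
The Mcm6 window held 3 matches, of which 2 overlapped, lying 39 to 110 bases before the start. Cdc6, Orc1 and Gins3 held 1 match each, and the upstream windows of Rrm2 and Pcna held none. A match describes these letters alone, and is neither a binding site nor a cause.

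Library totals ran from 15072109 to 18878107 counts in the BMDM experiment and from 11876719 to 44583327 in the RAW264.7 experiment. Levels are given in CPM, the counts of a gene per 1000000 counts of the library after scaling by edgeR's TMM factors. Nos2 rose from 1.25 to 1.53 CPM in unstimulated WT BMDM to between 10370 and 11530 after stimulation, and it was at 0 counts in unstimulated and at 870 to 912 CPM in stimulated iNOS KO libraries, a log2 difference of -3.64 ± 0.064 (SE) between stimulated genotypes. Akr1a1 in the RAW264.7 libraries was at 427 and 488 CPM in unstimulated WT against 206 and 21.9 in unstimulated KO, and at 576 and 675 against 370 and 212 after stimulation. It was lower in all 4 KO libraries, but edgeR's adjusted p was 0.56 and 0.643. Macrophage markers summed to between 2903 and 10408 CPM in the 20 libraries, lymphocyte markers to at most 1.14. In BMDM the macrophage sum did not overlap between genotypes. It was 7210 to 7563 CPM in unstimulated WT against 4952 to 5244 in unstimulated iNOS KO. After stimulation it was 6580 to 7360 against 9968 to 10408. In stimulated RAW264.7 it was 9111 to 9954 in WT against 3335 to 7007 in Akr1a1 KO. Of the 8 macrophage markers 5 were called lower in unstimulated iNOS KO BMDM, against 4.09% of all genes. Neutrophil markers summed to at most 1.17 CPM in unstimulated and 35.7 to 419.8 CPM in stimulated libraries, and fibroblast markers to at most 0.389 and 6.53 to 20.6. Of 8 neutrophil markers 3 to 6 were at 0 in each stimulated library, and of 8 fibroblast markers 2 to 4. Their part in the results was not tested. Replicate B of stimulated iNOS KO BMDM stood apart from replicates A and C, differing from them by a chi-square per degree of freedom of 28.8 and 36.8 over genes, against 6.61 between A and C.

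Stimulation lowered nearly the whole replication programme in WT BMDM. In the 3 unstimulated WT libraries the 55 genes summed to between 5443 and 5620 CPM, and in the 3 stimulated WT libraries to between 1141 and 1166 CPM. In edgeR's quasi-likelihood test, with p-values adjusted by Benjamini-Hochberg over the 18691 genes tested, 50 of the 55 genes were lower at an adjusted p under 0.05, 2 were higher and 3 did not pass. Of all genes tested 28.5% were lower and 32.4% higher. The median log2 fold change of the 55 was -2.88, while that of all genes was 0.071. In 52 genes the stimulated and unstimulated libraries did not overlap, as in 67.8% of all genes. A fall in a bulk library cannot tell fewer dividing cells from less RNA per cell.

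In iNOS KO BMDM the same stimulation moved these genes little. Unstimulated libraries summed to between 5323 and 5417 CPM and stimulated ones to between 4471 and 4792 CPM. The test called 31 genes lower and 7 higher, with 17 not passing, against 24.6% lower and 27.3% higher of all genes. Of the 31, 5 fell by more than 1 log2 unit, or 9.09% of the 55 against 8.78% of all genes, compared with 47 in WT cells, or 85.5% against 15.7%. The median was -0.25. Several of the iNOS KO calls were near the threshold, and Lig1, Prim2, Mcm10, Pole, Rfc5 and Uhrf1 each lost theirs in 2 to 9 of the 12 fits that left out 1 library. Lig1 (adjusted p = 0.0438) lost it in 9, with edgeR's adjusted p between 0.0509 and 0.148. The median gene kept 84.1% of its unstimulated level in iNOS KO cells and 13.6% in WT cells.

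**Figure D1:**
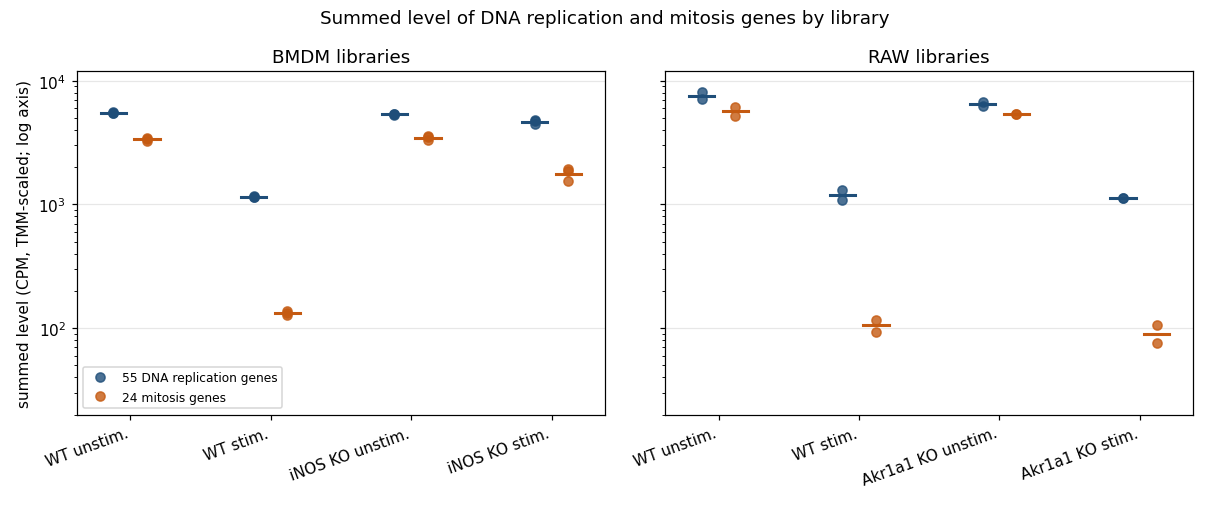
Summed level in CPM (log axis) of the 55 DNA replication genes (blue) and of 24 mitosis genes (orange) in each library, with a bar at the mean of the group. In BMDM the replication sum lay at 1141 to 1166 CPM in stimulated WT and at 4471 to 4792 in stimulated iNOS KO libraries, while in RAW264.7 all 4 stimulated libraries lay between 1089 and 1300.

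Most of these genes were called different between the genotypes after stimulation, and 0 before it. In stimulated cells 51 of the 55 genes were higher in iNOS KO than in WT, 1 was lower (Orc5) and 3 did not pass (Orc4, Pold3 and Pcna), where 24.2% of all genes were higher and 24.2% lower. The median log2 difference was 2.78, and 45 genes were higher by over 1 log2 unit, or 81.8% against 10.7% of all genes. In 50 genes the genotypes did not overlap, as in 53.2% of all genes. In unstimulated cells edgeR called 0 of 55 genes in either direction, against 1.88% of all genes higher and 4.09% lower in iNOS KO. At an unadjusted p under 0.05 there were 2 genes, or 3.64% against 17.1% of all genes, and DESeq2 called 0. The log2 differences ran from -0.15 for Pold1 to 0.42 for Ccne2. Without replicate B of the stimulated iNOS KO group, which shares the estimate of spread, 3 genes were called higher in unstimulated iNOS KO cells, Ccne2, Orc4 and Pola1.

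The difference between the 2 responses was tested as the interaction of genotype and stimulation, which called 49 genes, with a weaker fall or stronger rise in iNOS KO, and 1 gene, Orc5, the other way. Over all genes the shares were 20% and 15.4%. The 5 genes that did not pass were Orc2, Orc3, Orc4, Pold3 and Pcna. Without replicate B of stimulated iNOS KO BMDM, Orc2 and Orc3 passed, with log2 differences of 0.44 and 0.41. Without replicate A of that group Orc4 passed as lower, making 2 genes in that direction, while Gins3 and Rfc1 no longer passed (edgeR's adjusted p = 0.0733 and 0.0504). Gins3 was also lost without replicate A or B of stimulated WT (adjusted p = 0.0598 and 0.0588).

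**Figure D2:**
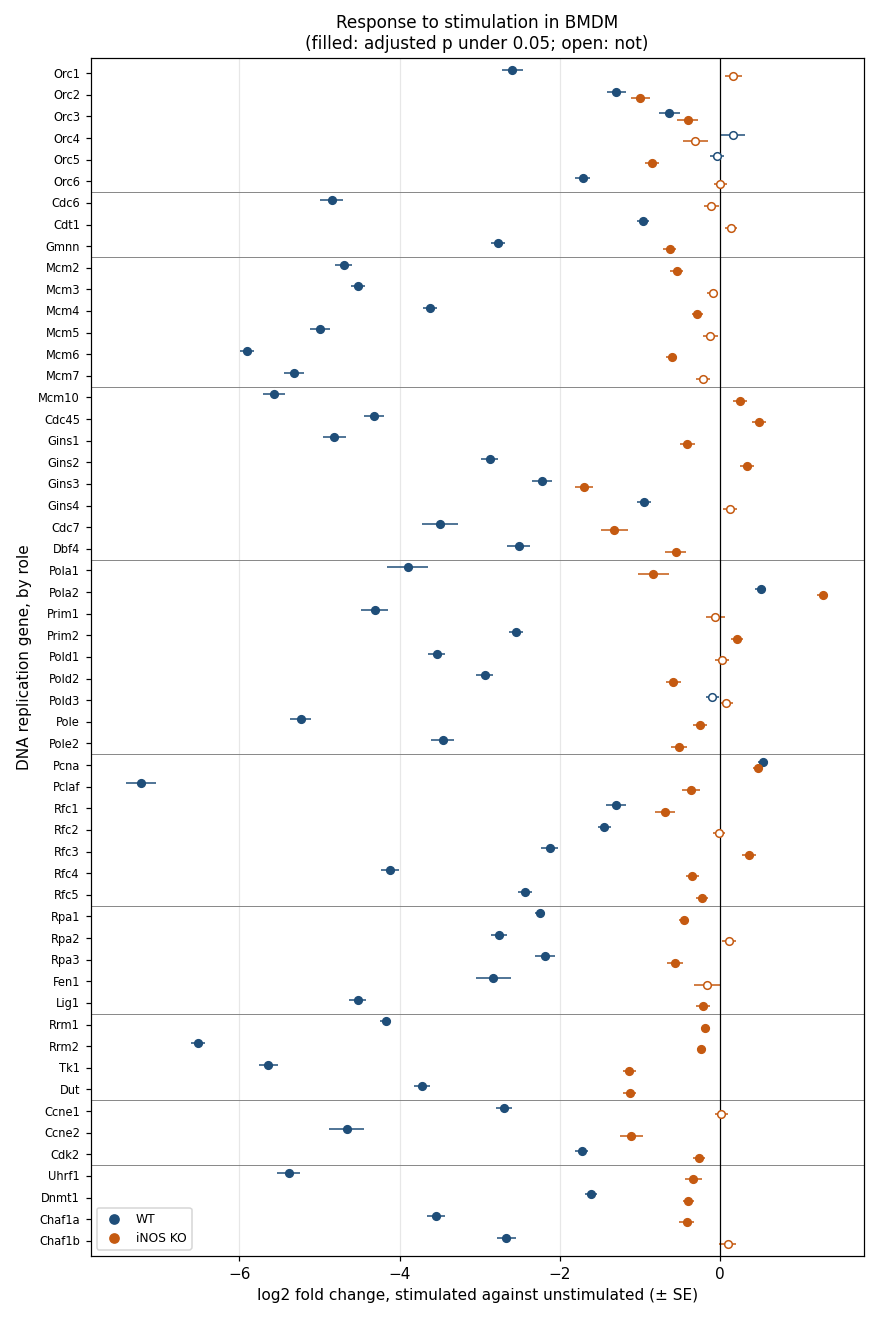
Log2 fold change of stimulated against unstimulated BMDM (x axis, ± SE) for each of the 55 genes (y axis, ordered by role) in WT (blue) and iNOS KO (orange), filled where the adjusted p was under 0.05. WT values reached -7.23 (Pclaf), while iNOS KO values lay between -1.70 (Gins3) and 1.28 (Pola2).

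The origin recognition complex, which marks origins and loads the helicase, was the most mixed of the roles. In WT BMDM 4 of its 6 genes fell. Orc1, the largest subunit and the one whose supply follows the cell cycle, was at 18.4, 17.0 and 19.1 CPM unstimulated and at 3.12, 3.58 and 2.29 stimulated in WT, but at 18.5, 18.8 and 18.3 unstimulated and 19.4, 20.4 and 22.4 stimulated in iNOS KO. Only the stimulated WT libraries stood low. Orc1 changed by -2.59 ± 0.13 in WT (adjusted p = 2.36e-11) and by 0.16 ± 0.11 in iNOS KO (adjusted p = 0.212). Orc6 followed it, falling by 1.72 in WT, with a value of -0.0019 in iNOS KO.

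The remaining subunits showed other patterns. Orc2 fell in both genotypes, by 1.30 in WT and 1.00 in iNOS KO, and Orc3 by 0.64 and 0.41. Orc4 was at 18.1, 18.1 and 16.3 CPM in unstimulated WT, 21.1, 17.9 and 19.4 in stimulated WT, 22.2, 21.7 and 22.4 in unstimulated iNOS KO, and 21.3, 11.5 and 20.3 in stimulated iNOS KO libraries. Replicate B was the lowest of the last group, which lay below unstimulated iNOS KO without overlap. Orc4 passed in none of these comparisons in edgeR's fit of all libraries, and without replicate A of stimulated iNOS KO it was called lower than in unstimulated iNOS KO (adjusted p = 0.0318). Orc5 was at 28.2, 29.2 and 30.6 CPM in unstimulated and 29.1, 27.8 and 28.5 in stimulated WT libraries, and at 30.3, 28.0 and 28.9 in unstimulated and 18.1, 14.8 and 15.5 in stimulated iNOS KO libraries. It was the one gene of the 55 for which iNOS KO was called lower once both genotypes were stimulated, lying lower by 0.85 ± 0.089 against unstimulated iNOS KO and by 0.82 ± 0.090 against stimulated WT (adjusted p = 4.15e-07 and 8.73e-07).

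Among the licensing factors, Cdc6 encodes the ATPase that joins the origin complex, Cdt1 the factor that brings in MCM2-7, and Gmnn geminin, the inhibitor of CDT1. Cdc6 was at 48.6, 46.8 and 51.7 CPM in unstimulated and 1.73, 1.42 and 1.94 in stimulated WT libraries, which is 21 to 28 counts. In iNOS KO it was at 43.6, 47.6 and 47.3 before and 47.6, 44.1 and 36.5 after stimulation, so that these groups overlapped. The fall in WT was 4.85 ± 0.14 (adjusted p = 1.02e-14) and the iNOS KO change -0.11 ± 0.095 (adjusted p = 0.343).

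Cdt1 responded far less. Its WT libraries read 203, 193 and 215 CPM unstimulated and 101, 101 and 110.2 stimulated, a fall of 0.97 ± 0.076, and the stimulated iNOS KO libraries read 188, 226 and 193. Stimulated WT cells therefore kept 51.2% of their Cdt1 but 3.46% of their Cdc6. Gmnn fell in both genotypes, by 2.78 in WT and 0.63 in iNOS KO.

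The 6 genes of the MCM2-7 helicase, the ring that unwinds the template, fell together in WT BMDM by between 3.62 (Mcm4) and 5.91 (Mcm6). Mcm6 was at 293, 291 and 302 CPM in unstimulated and 4.78, 5.67 and 4.30 in stimulated WT libraries, and at 292, 293 and 296 before and 202, 193 and 184 after stimulation in iNOS KO. Stimulated WT cells kept 1.67% of the unstimulated level. The 3 stimulated iNOS KO libraries also lay below their own unstimulated group, by 0.61 ± 0.066. Mcm4 was at 164, 168 and 166 CPM in unstimulated and 14.2, 13.6 and 12.6 in stimulated WT libraries, against 156, 131 and 149.5 in stimulated iNOS KO. In iNOS KO, Mcm2, Mcm4 and Mcm6 fell by 0.29 to 0.61, while Mcm3, Mcm5 and Mcm7 did not pass, with values of -0.095, -0.13 and -0.22. Mcm7 lay at the threshold (edgeR's adjusted p = 0.0516) and was called lower by DESeq2 (adjusted p = 0.0186), with a replicate block (adjusted p = 0.0429), under 5 further settings and on leaving out any of 3 libraries.

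The 6 genes were also compared per length of gene model. In unstimulated WT BMDM the lowest, Mcm2, was at 29.8 CPM per kb and the highest, Mcm5, at 71.9, a ratio of 2.42. In stimulated WT cells they lay between 1.05 (Mcm6) and 3.76 (Mcm4), a ratio of 3.56, and in stimulated iNOS KO cells between 19.5 (Mcm2) and 61.5 (Mcm3), a ratio of 3.15. The 6 genes made up 25.5% of the summed CPM of the 55 in unstimulated WT, 4.46% in stimulated WT and 23.5% in stimulated iNOS KO libraries.

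The 8 genes of helicase activation all fell in WT BMDM, and in iNOS KO 3 rose, 4 fell and 1 did not pass. Mcm10, which helps switch the loaded helicase on, was at 71.6, 61.9 and 69.7 CPM unstimulated and 1.80, 1.22 and 1.25 stimulated in WT, and at 63.1, 65.4 and 64.7 unstimulated and 80.5, 82.0 and 66.5 stimulated in iNOS KO. It fell by 5.57 ± 0.14 in WT and rose by 0.24 ± 0.091 in iNOS KO (adjusted p = 0.0337), a rise that DESeq2 did not call (adjusted p = 0.0589). Cdc45 and Gins2, which encode parts of the active helicase, also fell in WT (by 4.32 and 2.88) and rose in iNOS KO (0.49 and 0.34). Gins1 fell by 4.81 in WT and 0.41 in iNOS KO, and Gins4 by 0.95 in WT alone.

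In iNOS KO, Gins3 and Cdc7 fell by more than 1 log2 unit. Gins3, another GINS subunit, was at 24.6, 26.3 and 24.9 CPM in unstimulated and 4.92, 5.00 and 6.31 in stimulated WT libraries, and at 27.1, 22.4 and 25.3 in unstimulated and 8.48, 7.28 and 7.28 in stimulated iNOS KO libraries. Both stimulated groups were low and did not overlap each other. Gins3 fell by 2.22 ± 0.12 in WT and 1.70 ± 0.11 in iNOS KO, and the genotypes differed after stimulation by 0.51 ± 0.13 (adjusted p = 0.00433). The kinase that fires origins is encoded by Cdc7. Cdc7 was at 15.9, 20.5 and 16.8 CPM in unstimulated and 1.87, 1.69 and 1.11 in stimulated WT libraries, and at 17.8, 15.3 and 20.4 before and 8.68, 5.05 and 7.58 after stimulation in iNOS KO. It fell by 3.501 in WT and by 1.32 in iNOS KO. Its activator Dbf4 fell by 2.52 and 0.56.

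Of the 9 polymerase and primase genes, 7 fell in WT BMDM. Pole, the catalytic subunit of the leading-strand polymerase epsilon, was at 73.1, 71.2 and 76.5 CPM in unstimulated and 2.63, 1.49 and 1.73 in stimulated WT libraries, and at 78.5, 81.5 and 75.2 before and 68.6, 68.8 and 60.3 after stimulation in iNOS KO. It fell by 5.24 ± 0.13 in WT and 0.25 ± 0.091 in iNOS KO. The epsilon subunit gene Pole2, the delta subunit genes Pold1 and Pold2 and the primase genes Prim1 and Prim2 fell by 2.55 to 4.31 in WT. In iNOS KO they ran from -0.59 (Pold2) to 0.21 (Prim2). Pola1, the catalytic subunit of the initiating polymerase alpha, fell by 3.90 in WT and 0.83 in iNOS KO, where replicate B was at 16.7 CPM against 36.8 and 35.9.

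Pold3 and Pola2 departed from the rest. Pold3, an accessory subunit of the lagging-strand polymerase delta, was at 46.2, 47.1 and 43.3 CPM in unstimulated and 46.5, 41.0 and 39.7 in stimulated WT libraries, and at 41.3, 47.4 and 45.2 and then 45.0, 47.3 and 48.3 in iNOS KO. The groups overlapped in each comparison, and Pold3 passed in no BMDM comparison. Pola2, the regulatory B subunit of polymerase alpha, was at 66.0, 67.9 and 72.2 CPM in unstimulated and 99.4, 94.7 and 97.8 in stimulated WT libraries, and at 61.9, 65.1 and 65.7 before and 144, 170 and 152 after stimulation in iNOS KO. It rose by 0.50 ± 0.072 in WT and 1.28 ± 0.072 in iNOS KO, and the rises differed by 0.77 ± 0.10 (adjusted p = 1.14e-05). In stimulated WT cells the 2 subunits of polymerase alpha thus moved in opposite directions.

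The sliding clamp and its partners held both ends of the range. Pclaf, the PCNA-associated factor, was at 123, 131 and 130 CPM in unstimulated and 0.900, 0.810 and 0.832 in stimulated WT libraries, which is 12 to 13 counts per library. In iNOS KO it was at 137, 128 and 135 before and 114, 77.0 and 119 after stimulation, with replicate B lowest. It had the deepest fall of the 55, by 7.23 ± 0.19 (adjusted p = 3.5e-15), against 0.37 ± 0.11 in iNOS KO (adjusted p = 0.0117).

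Pcna, the clamp itself, rose. Its libraries read 212, 211 and 209.7 CPM in unstimulated and 297, 289.5 and 325 in stimulated WT, and 218, 209 and 205 in unstimulated and 298.5, 274 and 303 in stimulated iNOS KO. Stimulated libraries were higher in both genotypes without overlap, and the stimulated genotypes overlapped. The rise was 0.53 ± 0.063 in WT (adjusted p = 1.24e-06) and 0.47 ± 0.063 in iNOS KO (adjusted p = 7.46e-06). Pcna, Cdt1, Dnmt1 and Pola2 supplied 15.5% of the summed CPM of the 55 genes in unstimulated WT and 54.4% in stimulated WT libraries. The clamp loader, RFC, opens the ring at primed sites, and its 5 genes fell in WT by 1.30 (Rfc1) to 4.12 (Rfc4). In iNOS KO, Rfc1, Rfc4 and Rfc5 fell by 0.23 to 0.69, Rfc3 rose by 0.36 and Rfc2 was at -0.013.

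**Figure D3:**
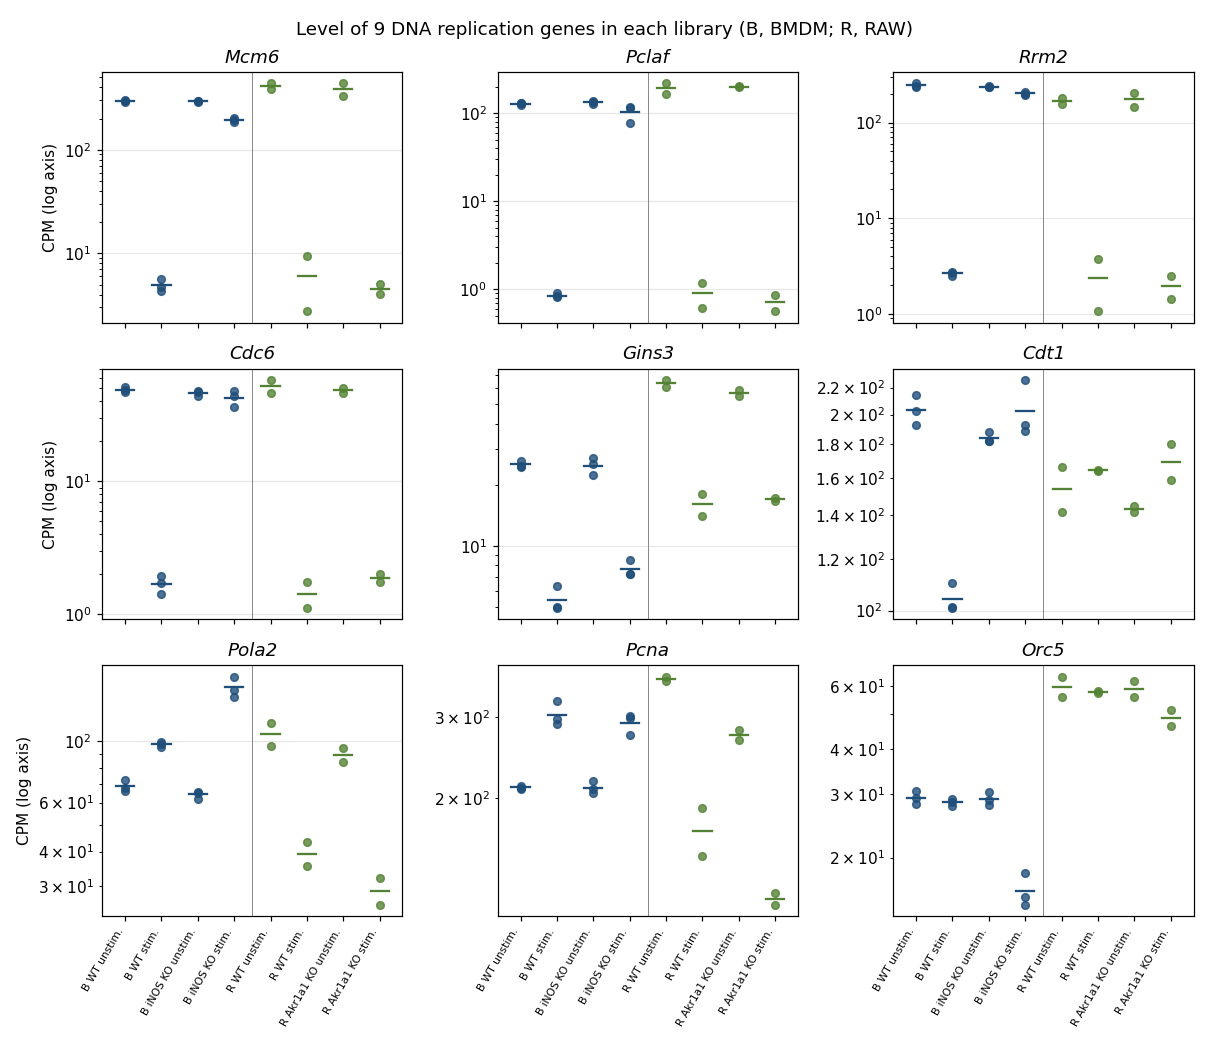
CPM (log axis) of 9 replication genes in every library of the 8 groups, with BMDM in blue, RAW264.7 in green and a bar at each group mean. Mcm6, Pclaf, Rrm2 and Cdc6 were low in every stimulated group but iNOS KO, Gins3 was low in all stimulated groups, and Pola2 and Pcna were raised in stimulated BMDM but lowered in stimulated RAW264.7.

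The single-strand binding complex RPA and the Okazaki fragment enzymes fell in WT BMDM, all 5 genes by more than 2 log2 units. Lig1, the ligase that joins the fragments, was at 170, 160 and 177 CPM in unstimulated and 6.23, 8.78 and 7.002 in stimulated WT libraries, against 136, 151 and 129 in stimulated iNOS KO. Rpa3, the smallest RPA subunit, was at 16.8, 17.8 and 17.7 CPM in unstimulated and 4.71, 3.44 and 3.33 in stimulated WT libraries, against 12.3, 11.8 and 11.9 in stimulated iNOS KO. For each gene the stimulated WT libraries lay below all others. Lig1 fell by 4.52 ± 0.11 and Rpa3 by 2.19 ± 0.12 in WT, and by 0.22 and 0.57 in iNOS KO. Rpa1 fell by 2.25 and 0.46, while Rpa2 and the flap nuclease gene Fen1 fell by 2.76 and 2.83 in WT and did not pass in iNOS KO (0.11 and -0.16).

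Nucleotide supply fell in WT and partly in iNOS KO. Rrm2, the cell-cycle-regulated subunit of ribonucleotide reductase, was at 237, 238 and 257 CPM in unstimulated and 2.77, 2.70 and 2.50 in stimulated WT libraries, and at 241, 232 and 237 before and 209, 199 and 196 after stimulation in iNOS KO. It fell by 6.52 ± 0.087 in WT and 0.23 ± 0.059 in iNOS KO, and its partner Rrm1 by 4.18 and 0.19. Thymidine kinase and dUTPase lost more in iNOS KO. Tk1 was at 109, 109.5 and 118 CPM in unstimulated and 2.29, 2.30 and 2.15 in stimulated WT libraries, and at 99.5, 105 and 106.5 before and 43.5, 54.2 and 43.9 after stimulation in iNOS KO. Dut was at 66.8, 68.0 and 70.2 and then 4.78, 5.60 and 5.20 in WT, and at 73.2, 64.8 and 67.6 and then 29.6, 34.6 and 30.0 in iNOS KO. Stimulated iNOS KO cells kept 45.5% of Tk1 and 45.8% of Dut, compared with 85% of Rrm2 and 88% of Rrm1.

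Cyclin E and CDK2 drive entry into S phase. Ccne2 was at 26.0, 27.2 and 25.5 CPM in unstimulated and 0.900, 1.08 and 1.11 in stimulated WT libraries, and at 37.8, 32.8 and 34.9 before and 19.7, 10.96 and 17.96 after stimulation in iNOS KO. Ccne1, the other cyclin E gene, fell by 2.70 in WT and stood at 0.011 in iNOS KO, whereas Ccne2 fell by 4.66 ± 0.22 and 1.11 ± 0.15. Cdk2 was at 69.8, 66.3 and 73.7 CPM in unstimulated and 21.7, 22.01 and 19.5 in stimulated WT libraries, and at 56.8, 64.8 and 56.3 in stimulated iNOS KO, changing by -1.73 and -0.27. For all 3 genes the stimulated libraries of the genotypes did not overlap, with iNOS KO above WT.

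Genes that copy chromatin marks and nucleosomes behind the fork fell likewise. Uhrf1, which recruits the maintenance methyltransferase to hemimethylated DNA, was at 273, 269 and 281.5 CPM in unstimulated and 4.85, 8.78 and 6.03 in stimulated WT libraries, against 210.4, 235 and 188 in stimulated iNOS KO. Dnmt1, that methyltransferase, was at 371, 372 and 377 and then 117, 133 and 115 in WT, and at 335, 345 and 342 and then 264.9, 275 and 235 in iNOS KO. Uhrf1 fell by 5.39 ± 0.14 in WT and Dnmt1 by 1.62 ± 0.072, and both fell in iNOS KO, by 0.34 and 0.40. The chromatin assembly factor genes Chaf1a and Chaf1b fell by 3.55 and 2.67 in WT. Chaf1a fell by 0.42 in iNOS KO, and Chaf1b did not pass (0.090).

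In RAW264.7 cells stimulation lowered these genes in both genotypes. In WT cells 51 of the 55 genes were lower and 0 higher, against 19.2% lower and 18.5% higher of the 19569 genes tested, with a median log2 fold change of -3.69. In Akr1a1 KO cells 51 were lower and 0 higher, against 19.4% and 19.8%, with a median of -3.14. The summed level went from 7106 and 8061 CPM to 1300 and 1089 in WT, and from 6250 and 6784 to 1127 and 1126 in Akr1a1 KO. The 4 genes that did not pass were Orc2, Orc4, Orc5 and Cdt1 in each genotype. Without replicate B of unstimulated WT 50 genes were lower in WT, and without replicate B of unstimulated Akr1a1 KO 51 were lower in Akr1a1 KO. With a replicate block by letter within genotype, edgeR called Orc2 lower in both (adjusted p = 0.0383 in WT and 0.0273 in Akr1a1 KO).

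The deepest fall was again that of Pclaf, followed by that of Mcm10. Pclaf was at 165 and 220 CPM in unstimulated and 1.19 and 0.619 in stimulated WT libraries, and at 202 and 198 and then 0.871 and 0.565 in Akr1a1 KO, the lowest being 9 counts. It fell by 7.77 ± 0.30 in WT and 8.12 ± 0.30 in Akr1a1 KO (adjusted p = 1.76e-06 and 1.68e-06). Mcm6 was at 384 and 438 and then 9.45 and 2.76 in WT, and at 332 and 436 and then 4.02 and 5.09 in Akr1a1 KO. Mcm10 fell by 6.57 and 6.66. Replicate A of stimulated WT was the higher of its pair in 46 of the 55 genes, at a median distance of 13.8% from the mean of the pair.

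Several genes that stood apart in the libraries labelled BMDM behaved otherwise in those labelled RAW264.7. The experiments were normalized separately, differ in IFNγ dose and M-CSF, and the study's paper names RAW264.7 for both. Whether cell type accounts for the differences was not tested, and the values are given side by side with no test between them. Pcna, which rose in BMDM, was at 368 and 361 CPM in unstimulated and 190 and 149 in stimulated WT RAW264.7, and at 268 and 281.5 and then 117 and 124 in Akr1a1 KO, falling by 1.10 ± 0.14 and 1.19 ± 0.14. Pola2 fell by 1.43 and 1.63, from 95.8 and 116 CPM to 35.5 and 43.1 in WT. Pold3, flat in BMDM, fell by 0.62 and 0.58. Cdt1, which fell in WT BMDM, was at 141.5 and 166 unstimulated and 164 and 164 stimulated in WT RAW264.7, with fold changes of 0.093 ± 0.13 and 0.24 ± 0.13 that did not pass. Orc4 was at 47.7 and 52.9 and then 61.6 and 59.3 in WT, and its 0.34 ± 0.14 in Akr1a1 KO did not pass in edgeR (adjusted p = 0.0795) but did in DESeq2 (adjusted p = 0.0381).

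**Figure D4:**
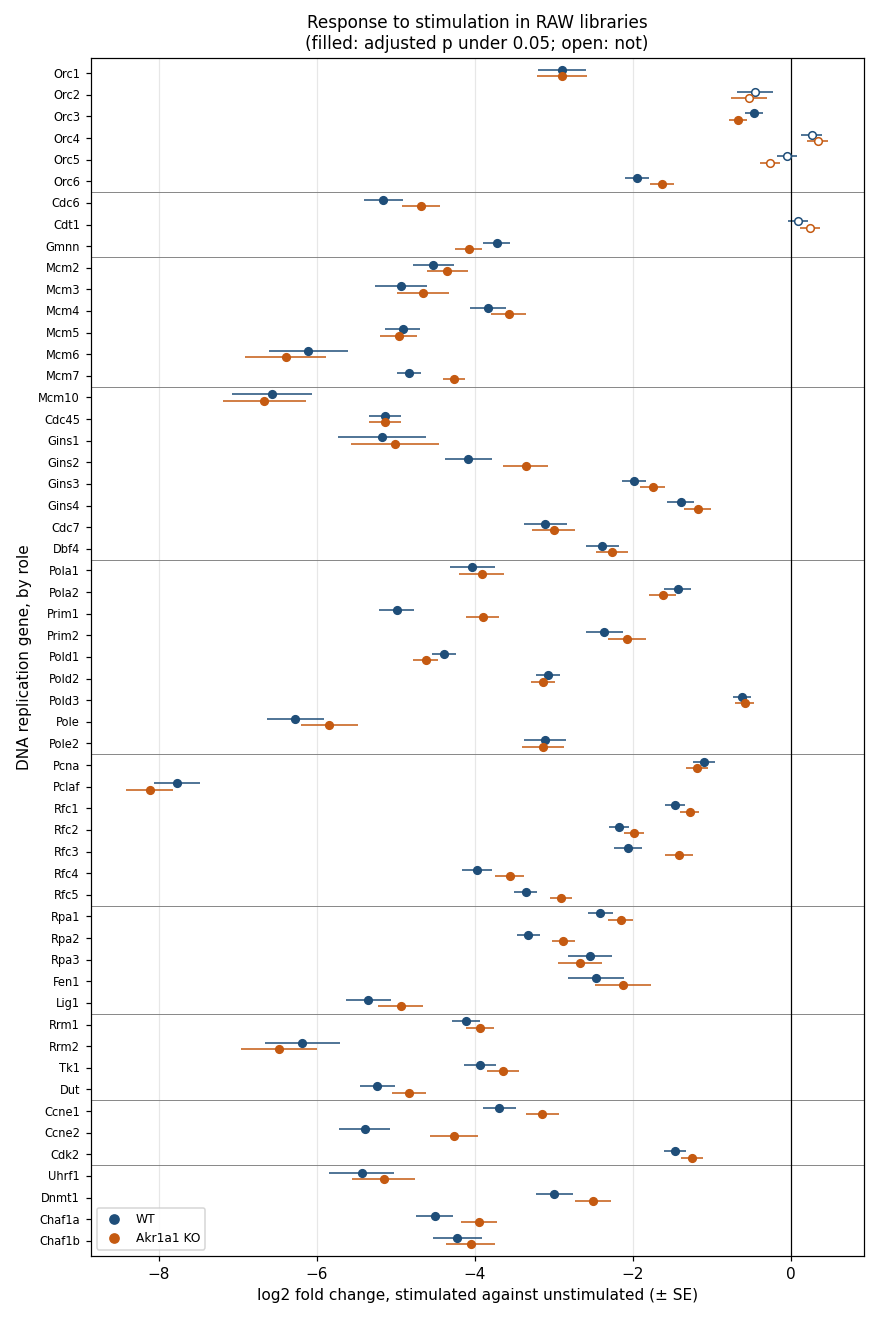
Log2 fold change of stimulated against unstimulated RAW264.7 libraries (x axis, ± SE) for the 55 genes (y axis, ordered by role) in WT (blue) and Akr1a1 KO (orange), filled where the adjusted p was under 0.05. The 2 genotypes lay close together for most genes, and 51 genes fell in each.

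Loss of Akr1a1 gave no call among these genes, but with 2 libraries a group the test could miss small changes. On data simulated for the stimulated comparison edgeR called 105 of 150 genes changed by at least 1 log2 unit. It called 106 of all 200 changed genes, so smaller changes were rarely called. The lack of calls therefore does not show that these genes were unchanged. In stimulated cells 0 of the 55 were called in either direction by edgeR and by DESeq2, 5 at an unadjusted p under 0.05 (9.09%, against 11.1% of all genes), where 0.0869% of all genes were higher and 0.199% lower in Akr1a1 KO. Log2 differences ran from -0.67 (Gmnn) to 0.74 (Prim1), with a median of -0.012. The sign of that median rested on single libraries, being 0.16 without replicate A of stimulated WT, -0.20 without its replicate B, and -0.11 and 0.059 without replicates A and B of stimulated Akr1a1 KO. In unstimulated cells both tools called 0, with 6 at an unadjusted p under 0.05 (10.9%, against 8.04% of all genes), against 0.23% of all genes higher and 0.353% lower. There 50 of the 55 differences were negative, against 10369 of all 19569 genes, with a median of -0.24 against -0.023 for all genes. Replicate B of unstimulated WT was the higher of its pair in 52 of the 55 genes. Replicate A of unstimulated Akr1a1 KO was the lower of its pair in 46. Without replicate B of unstimulated WT, 42 differences were negative, with a median of -0.11, and without replicate B of unstimulated Akr1a1 KO 52 were, with a median of -0.30. The test called 0 genes in either case. Pcna came nearest in unstimulated cells, at -0.41 ± 0.14 (adjusted p = 0.455). The interaction called 0 genes with both tools and 4 at an unadjusted p under 0.05 (7.27%, against 5.51% of all genes), against 0.00511% and 0.0153% of all genes. Its median of 0.19 was 0.087 without replicate B of unstimulated WT, 0.24 without that of unstimulated Akr1a1 KO, and -0.064 without replicate B of stimulated WT.

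**Figure D5:**
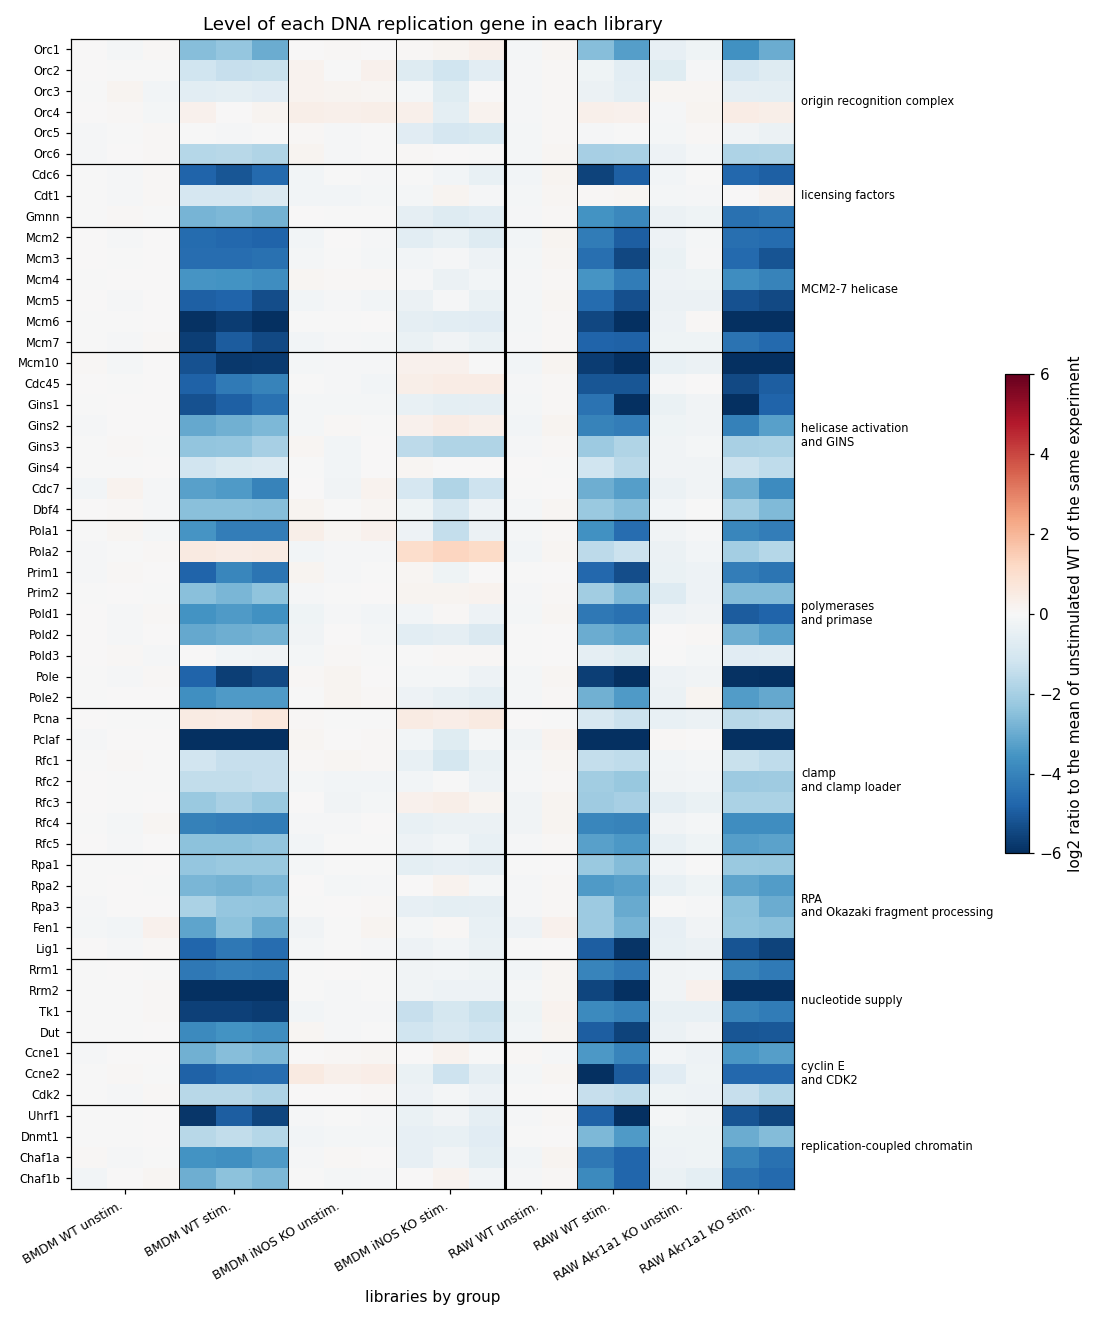
Log2 ratio of each gene's CPM to its mean in unstimulated WT libraries of the same experiment (colour, drawn at the end of the scale beyond 6), with 55 genes in rows by role and 20 libraries in columns. The stimulated WT BMDM columns and all 4 stimulated RAW264.7 columns are blue, while the stimulated iNOS KO columns are pale, with Gins3, Cdc7, Tk1 and Dut among the bluest and Pola2 the reddest.

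Other genes of replication and nucleotide metabolism, 42 that were not chosen among the 55, are set beside them. This list too was chosen with earlier results of these data known, so it is no independent check. In WT BMDM 36 of the 42 were lower and 5 higher, against 28.5% and 32.4% of all genes, with a median of -2.44. In iNOS KO BMDM 24 were lower and 6 higher, against 24.6% and 27.3%, with a median of -0.35. In stimulated cells 36 were higher and 4 lower in iNOS KO than in WT, against 24.2% of all genes each way. Clspn, which links the fork to the checkpoint, fell by 5.93 ± 0.20 in WT and 0.92 ± 0.13 in iNOS KO. Among those that rose in WT were Pold4, the small subunit of polymerase delta (2.36 ± 0.13), and Samhd1, which degrades deoxynucleotides (2.57 ± 0.061), and both also rose in iNOS KO, by 1.34 and 2.14. In RAW264.7, 34 of the 42 were lower in each genotype, against 19.2% of all genes in WT and 19.4% in Akr1a1 KO. There 5 in WT and 4 in Akr1a1 KO were higher, against 18.5% and 19.8%.

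A list of 24 mitosis genes is set beside the replication genes. All 24 fell in WT BMDM, against 28.5% of all genes, with a median of -5.62. All 24 also fell in iNOS KO BMDM, against 24.6%, with a median of -1.02 beside -0.25 for the 55 replication genes. The sum of the 24 mitosis genes went from 3292 to 3556 CPM in unstimulated to 1539 to 1931 CPM in stimulated iNOS KO libraries, with replicate B the lowest. Among 9 G1 regulators that could be tested, 3 rose and 4 fell in WT BMDM, 3 rose and 6 fell in iNOS KO BMDM, 2 rose and 2 fell in WT RAW264.7, and 2 rose and 5 fell in Akr1a1 KO RAW264.7. Of all genes 32.4% rose and 28.5% fell in WT BMDM, and 27.3% and 24.6% in iNOS KO BMDM. The RAW264.7 shares were 18.5% and 19.2% in WT, and 19.8% and 19.4% in Akr1a1 KO. Cdkn2c, the CDK inhibitor p18, fell in all 4 stimulated groups, by 2.81 in WT and 1.004 in iNOS KO BMDM and by 3.81 and 3.56 in WT and Akr1a1 KO RAW264.7. Cdkn1a, the CDK inhibitor p21, rose in all 4 stimulated groups, by 2.21 in WT and 1.48 in iNOS KO BMDM and by 3.495 and 2.75 in WT and Akr1a1 KO RAW264.7. In stimulated BMDM 5 of the 9 were higher and 2 lower in iNOS KO than in WT, against 24.2% of all genes each way. Ccnd2, the cyclin D2 gene, had the largest difference, 2.25, and rose most on stimulation in iNOS KO, by 6.52. Its difference of -2.57 between unstimulated genotypes did not pass. Whether the 24 mitosis and the 55 replication genes differ as lists was not tested.

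Replicate B of stimulated iNOS KO BMDM was the lowest of its group in 16 and the highest in 28 of the 55 genes, with a median distance of 9.25% from the group mean, against 4.31% and 6.98% for replicates A and C. Without it the stimulated genotypes still differed in 51 genes with iNOS KO above WT. Gene models of 16 of the 55 genes overlap a protein-coding gene on the other strand, among them Orc2, Orc4, Orc6, Mcm7, Cdc45, Gins2, Pclaf, Fen1, Lig1, Tk1 and Ccne2. The strand setting of the counting is not given in the sources used here, so reads of such pairs may not be fully separated. Pcna has 2 rows named as its processed pseudogenes, which held at most 83 counts in a library beside at least 1744 for Pcna.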

How the data were processed

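According to the sources, the authors sequenced poly(A)-enriched libraries, processed base calls with CASAVA and aligned reads with STAR to mm10. They deposited whole-number read counts per gene, with 1 table per experiment. Gene positions in the deposited counts do not match the GRCm38.p6 promoter windows. Mcm6, on the minus strand, ends at 128287401 there, while its upstream window begins at 128359706. The genome build of the deposited annotation is therefore unsettled. Tool versions and the strand setting are not given in the sources used here. The deposited counts were the only values used, and groups followed the treatment and genotype fields of the labels.

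Genes with at least 10 counts summed over an experiment were tested with edgeR 4.0.16 in R 4.3.3, using TMM scaling, 1 mean per group over all libraries of the experiment and the quasi-likelihood test. A call is an adjusted p (Benjamini-Hochberg over all genes tested) under 0.05. CPM are counts per 1000000 of the TMM-scaled library size. Fold changes are log2 with their SE, and n is 3 libraries a group for BMDM and 2 for RAW264.7. The steps were tested on simulated data: of 200 genes changed in the stimulated iNOS KO against WT BMDM comparison, edgeR called 167 among 18299 genes, and of 200 in the stimulated Akr1a1 KO against WT comparison it called 106 among 18996.

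Alternatives were DESeq2 1.42.0, its size factors, other filters, protein-coding genes alone, the compared groups alone, a replicate block by letter, a fold limit and leaving out each library. Deviations from the group means of same-letter BMDM libraries correlated at over 0.1 for all 3 pairs between the iNOS KO states (0.121 to 0.497), and not for all pairs between other groups. Between the iNOS KO states, unstimulated A and stimulated C also correlated, at 0.402, and the remaining different-letter pairs ran from -0.462 to 0.0788. These correlations do not show that letters pair the samples. The main fit used group alone, with the block by letter as an alternative. For RAW264.7 no source used here says that a letter marks the same clone in both states, and same-letter correlations were 0.438 in WT and 0.103 in Akr1a1 KO. Per-library values were given for the genes with the largest and smallest difference between stimulated BMDM genotypes in each role, and for genes whose call differed from their role. The 55 genes and the other lists were chosen with earlier results of these data known. Promoter sequences come from RefSeq (GRCm38.p6), and matched 46 of the 55 genes by symbol.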

Additional observations from a re-analysis of the deposited data

Results flagged for a closer look

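The response to stimulation differed between WT and iNOS KO BMDM by the interaction test of edgeR's quasi-likelihood fit, which called 49 of the 55 replication genes in one direction and 1 in the other. Pclaf had the largest difference of responses, 6.86 on the log2 scale, followed by Rrm2 at 6.28 and Mcm10 at 5.81. Orc5 was the gene called the other way, at -0.81. Each is the iNOS KO response minus the WT response.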

How the results depend on the processing

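Among the genes given library by library, none called in the stimulated iNOS KO against WT BMDM comparison changed sign under any alternative run. Orc4, Pold3 and Pcna, not called there, were not scored for sign, and counts were compared by size alone. The medians of the stimulated Akr1a1 comparison and of its interaction did change sign, as given above. With a fold limit of 1 log2 unit in BMDM, the genes called higher in stimulated WT went from 2 to 0, those higher in stimulated iNOS KO from 7 to 1 and those lower from 31 to 5, while Orc5 left both the stimulated genotype comparison and the interaction, whose lower counts became 0. Genes called higher in unstimulated iNOS KO BMDM numbered 0, but 1 with no filter on counts (Ccne2), 3 with the compared groups alone (Ccne2, Orc4 and Pola1), and 0 to 3 on leaving out each library. Genes called lower in the interaction numbered 2 with no filter (Orc4 added) and 1 to 2 on leaving out each library. In stimulated Akr1a1 KO RAW264.7 cells, 1 gene (Orc4) was called higher in place of 0 under DESeq2, its size factors in edgeR, filterByExpr and protein-coding genes alone. The cause of these changes was not tested.

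A replicate block by letter gave 51 genes higher in stimulated iNOS KO than WT BMDM, as without it, and 32 in place of 31 lower in stimulated iNOS KO BMDM (Mcm7 added). A replicate block by letter within RAW264.7 genotype gave 52 in place of 51 lower in each (Orc2 added). The blocks changed no other call among the 55 genes. Pclaf rested on 9 to 16 counts per stimulated RAW264.7 library, which limits the precision of its level there.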
